A study of Mus musculus with 32 samples.

Results

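The 9 genes described here encode inflammasome sensors and the proteins that act with them, and they were chosen by symbol: Nlrp3, Nlrc4, Aim2, Naip2, Naip5, Pycard, Casp1, Casp4 and Gsdmd. All 9 were found among the 22216 genes of the deposited tables, and all 9 passed the filter on low values, so none was set aside. RNA was sequenced from dendritic cells grown for 9 days from mouse bone marrow with GM-CSF, a growth factor that drives such cultures. Double-knockout (dKO) cells came from Lmp7-/-Mecl1-/- mice, which lack the immunoproteasome subunits LMP7 (gene Psmb8) and MECL1 (gene Psmb10), and wild-type (WT) cells carried both genes. Every culture was on the C57BL/6 background, and lipopolysaccharide (LPS, a component of the Gram-negative cell wall) was added at 1 µg/mL for 1, 2 or 6 h or not at all (0 h), which made 8 groups of 4 libraries. The labels do not say whether the libraries of a group came from separate animals, so every p-value rests on library-to-library spread that could be purely technical. Both deletions are present in every cell of the animal, and a culture of this kind is a mixture of cells, in which fewer cells of a type and less RNA per cell cannot be told apart.

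An inflammasome is a cytosolic complex in which a sensor, directly or through the adaptor ASC, activates caspase-1. NLRP3 responds to many signs of cell damage, AIM2 binds cytosolic DNA, and NAIP proteins bind bacterial ligands and then engage NLRC4: in mice NAIP2 recognises the inner rod of type III secretion systems and NAIP5 recognises flagellin. Pycard encodes ASC, and Casp4 is the mouse gene for caspase-11, which binds cytosolic LPS. Both caspases cleave gasdermin D, the product of Gsdmd, whose freed end forms pores in the plasma membrane, and caspase-1 also matures IL-1β and IL-18. In macrophages and dendritic cells LPS acts as the first, priming signal, which raises the transcription of several of these genes before any complex forms.

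On the mm9 genome the 9 genes lie at 7 places. Casp1 (chr9:5298517-5307281) and Casp4 (chr9:5308860-5336791) are neighbours 1579 bases apart. Naip2 (chr13:100914018-100972047) and Naip5 (chr13:100981695-101017291) are neighbours 9648 bases apart in the NAIP cluster. No other gene of the tables overlaps any of the 9. Since members of the NAIP cluster are close copies, reads could be shared among them: of all 100-base stretches of Naip2 transcripts 4.34% also occur in another NAIP transcript, against 10.9% for Naip5 and none for the other 7 genes. Transcripts of Naip1, Naip2, Naip5 and Naip6 were compared, and sharing with Naip7 was not measured. How the authors assigned such reads is not given in the sources used here, so Naip5 in particular is uncertain to that extent.

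Promoter windows of 300 bases (250 before the start of a transcript and 50 after it) were taken from RefSeq on GRCm38.p6, and 8 of the 9 genes matched, with 10 windows. They were searched on both strands for the κB consensus, the site bound by NF-κB, and for the core of the interferon-stimulated response element (ISRE). The κB consensus was found in windows of Nlrp3, Casp4 and Naip5, and in 2779 of 32851 windows of all genes (8.46%). The ISRE core was found in none of the 10 windows, and in 1131 of 32851 windows of all genes (3.44%). The windows of Casp4, with the largest LPS response of the 9, of Nlrp3, with the largest at 1 h, and of Naip2, with the genotype difference described below, are shown 5′ to 3′ on the gene's strand, with κB matches in capitals. Counted from the transcript start, matches begin at -93 and -92 in the Casp4 window, where they overlap, and another begins at -39. In the Nlrp3 window, which is 1 of 2 for that gene, the match begins at -186 and reads on both strands. The other Nlrp3 window held no match. A second Casp4 window overlaps the one printed and holds the same letters.
Casp4, chr9:5308599-5308898, plus strand: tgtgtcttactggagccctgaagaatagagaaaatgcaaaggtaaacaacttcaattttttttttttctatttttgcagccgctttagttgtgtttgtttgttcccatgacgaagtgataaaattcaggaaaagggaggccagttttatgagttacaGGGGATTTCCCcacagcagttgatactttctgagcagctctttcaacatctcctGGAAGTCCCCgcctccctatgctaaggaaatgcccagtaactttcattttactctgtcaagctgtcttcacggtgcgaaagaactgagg
Nlrp3, chr11:59541319-59541618, plus strand: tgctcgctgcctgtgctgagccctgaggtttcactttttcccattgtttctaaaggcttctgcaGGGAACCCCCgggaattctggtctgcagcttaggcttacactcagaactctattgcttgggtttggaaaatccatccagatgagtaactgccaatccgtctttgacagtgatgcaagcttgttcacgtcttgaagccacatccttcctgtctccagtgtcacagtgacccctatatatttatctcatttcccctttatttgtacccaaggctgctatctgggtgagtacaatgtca
Naip2, chr13:100202073-100202372, minus strand: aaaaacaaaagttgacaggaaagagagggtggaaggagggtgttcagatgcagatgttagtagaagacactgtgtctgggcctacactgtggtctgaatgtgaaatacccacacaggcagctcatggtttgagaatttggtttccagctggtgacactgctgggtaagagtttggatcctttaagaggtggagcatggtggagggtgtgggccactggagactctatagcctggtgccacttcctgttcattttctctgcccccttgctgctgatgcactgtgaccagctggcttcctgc
The Naip2 window held no match, nor did those of Nlrc4, Aim2, Pycard and Casp1. A match is a description of the letters in a window, and nothing about binding was measured.

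Depth ranged between 1.27 and 1.87 Gb on genes, and values are RPKM (reads per kilobase of gene, scaled to library size), a level per gene length. Spike-ins (added control RNAs) took 0.0943% to 0.1266% of the signal in dKO libraries and 0.1325% to 0.3275% in WT libraries, without overlap. What lies behind that split was not tested, and it runs together with genotype in every dKO and WT comparison below. Psmb8 stood at 1.75% to 3.09% of its WT mean in dKO cells and Psmb10 at 8.62% to 16%, with no overlap between the groups at any time (exact permutation test, two-sided, p = 0.0286, the smallest that 70 splits allow). Of the 16 dKO libraries, 5 correlated best with the WT mean of another LPS time than the one they are labelled with, and they stand apart in the results below. These are the libraries labelled dKO 0 h replicate 2 (nearest to WT at 1 h, Il6 at 1124 RPKM), dKO 1 h replicate 2 (nearest to 2 h), dKO 2 h replicate 2 (nearest to 0 h, Il6 at 1.67 RPKM), dKO 2 h replicate 4 (nearest to 6 h) and dKO 6 h replicate 4 (nearest to 2 h). They were kept under their labels, and results that involve dKO cells are set beside a fit of the other 27 libraries, where dKO at 2 h has 2 libraries. Of 11 dendritic cell markers (summed RPKM 9433 to 16498 in dKO libraries and 12366 to 17432 in WT libraries), the MHC class II genes Cd74, H2-Aa and H2-Ab1 carried most of the sum. Itgax had a median of 395 RPKM over the 32 libraries, but Zbtb46 (median 11.9 RPKM), Kmo (5.52), Dpp4 (3.33) and Flt3 (0.526) were low. Lymphocyte and erythroid markers were near 0. RPKM was not rescaled between libraries: after LPS the median change of all genes tested was -0.42, -0.73 and -0.65 (log2) at 1, 2 and 6 h in WT cells, so a gene near those values moved with the bulk of genes. Values with median-of-ratios scaling, which sets that median close to 0, stand beside the LPS changes of the 9 genes.

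**Figure D1:**
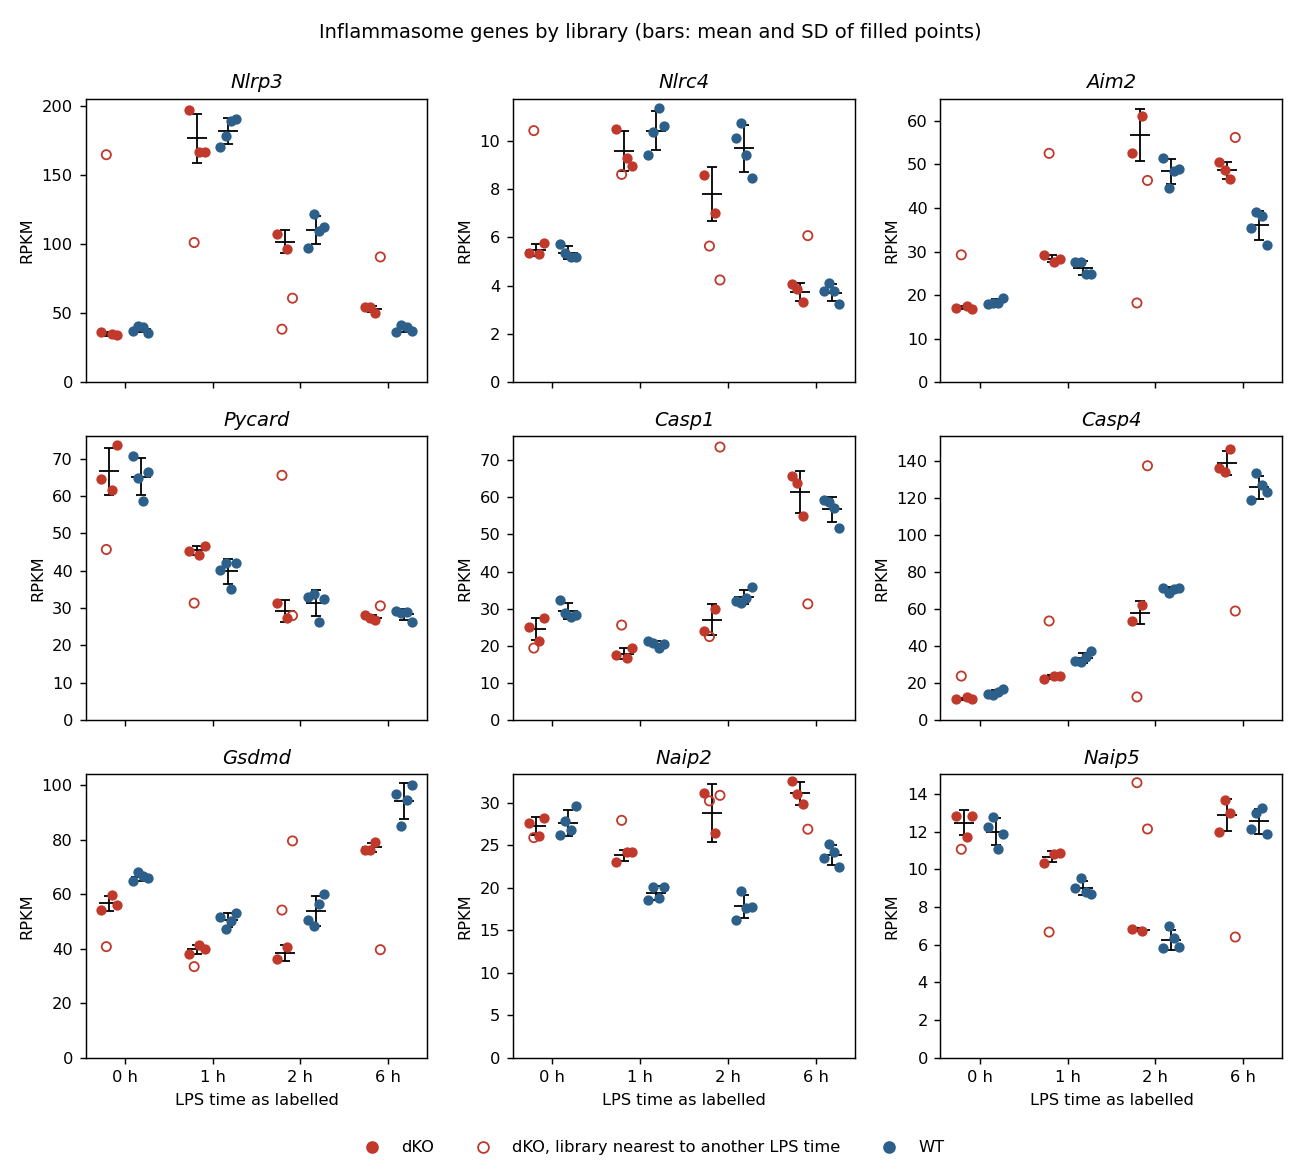
RPKM of the 9 genes (vertical axes, from 0) in each library by labelled LPS time, dKO in red and WT in blue. Open red circles are the 5 dKO libraries nearest to another LPS time, and bars give the mean and SD of the filled points. Nlrp3 peaks at 1 h (166 to 197 RPKM in the filled dKO points, 170 to 191 RPKM in WT), Casp4 climbs through 6 h, and Naip2 is higher in every dKO library than in every WT library at 1, 2 and 6 h.

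Before LPS the adaptor and the pore protein were the most abundant of the 9 transcripts. In dKO cells (the 3 libraries at 0 h that do not stand apart) the order of mean RPKM was Pycard 66.7, Gsdmd 56.7, Nlrp3 35.1, Naip2 27.3, Casp1 24.5, Aim2 17.1, Naip5 12.5, Casp4 11.6 and Nlrc4 5.48. In WT cells it was Gsdmd 66.4, Pycard 65.2, Nlrp3 38.4, Casp1 29.3, Naip2 27.6, Aim2 18.4, Casp4 15, Naip5 12 and Nlrc4 5.37. Ranges of neighbours overlapped for Naip2 with Casp1 and for Naip5 with Casp4 in dKO cells, and for Gsdmd with Pycard and for Casp1 with Naip2 in WT cells. After 6 h of LPS Casp4 stood first in both genotypes, at 139 ± 6.63 RPKM in dKO cells (SD, n = 3) and 126 ± 6.32 RPKM in WT cells (SD, n = 4). Gsdmd (77.2 RPKM in dKO, 94.1 RPKM in WT) and Casp1 (61.5 RPKM in dKO, 56.8 RPKM in WT) followed, and Nlrc4, the adaptor of the NAIP sensors, was last at 3.74 RPKM in dKO cells and 3.72 RPKM in WT cells.

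The LPS response answers which of the inflammasome genes are primed at the level of RNA, and when. In WT cells, with all 32 libraries, LPS raised the sensor genes Nlrp3 and Nlrc4 at 1 and 2 h and Aim2 at 2 and 6 h. It raised Casp4 at all 3 times and most at 6 h, and Casp1 and Gsdmd at 6 h. The RPKM of Pycard and Naip2 fell at all 3 times, that of Naip5 at 2 h and that of Nlrc4 at 6 h. With 27 libraries Aim2 at 1 h and Casp1 at 2 h were also called higher in WT cells. Casp1, Gsdmd and Naip5 at 1 h and Gsdmd at 2 h were also called lower there. The calls below come from limma over all 32 libraries, with p-values adjusted by Benjamini-Hochberg over 11154 genes and a threshold of 0.05. In dKO cells 4, 2 and 3 of the 9 genes were called higher at 1, 2 and 6 h, where 5.82%, 9.17% and 14.7% of all genes tested were, and 2, 1 and 2 were called lower, where 44.1%, 53.8% and 60.2% of all genes were. In WT cells 3, 4 and 4 were called higher (6.84%, 11.2% and 14.9% of all genes) and 2, 3 and 3 lower (45.5%, 68.5% and 60.9%). With 27 libraries the dKO counts were 4, 4 and 6 higher (9.49%, 13.8% and 18.8% of all genes) and 5, 3 and 2 lower (67.8%, 72.3% and 68.5%). The median change of the 9 was -0.12, 0.14 and 0.23 on the log2 scale at 1, 2 and 6 h in dKO cells and -0.39, 0.17 and 0.06 in WT cells, beside -0.41, -0.48 and -0.62 in dKO cells and -0.42, -0.73 and -0.65 in WT cells for all genes. Median-of-ratios scaling moved the split in dKO cells to 4, 4 and 6 higher and 0, 1 and 1 lower, and in WT cells to 4, 6 and 6 higher and 0, 1 and 1 lower.

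Nlrp3 rose within the first hour, and by 6 h its WT values overlapped those at 0 h again. In dKO cells it measured 36.4, 165, 34.9 and 33.8 RPKM at 0 h, 197, 101, 166 and 166 RPKM at 1 h, 107, 38.3, 96.1 and 60.8 RPKM at 2 h, and 54.4, 54.4, 50.4 and 90.7 RPKM at 6 h (replicates 1 to 4). In WT cells it measured 37.1, 40.7, 40.1 and 35.8 RPKM at 0 h, 170, 178, 189 and 191 RPKM at 1 h, 97.5, 122, 110 and 112 RPKM at 2 h, and 36.5, 41.4, 40 and 37.2 RPKM at 6 h. The dKO values that break the course, 165 at 0 h, 101 at 1 h, 38.3 and 60.8 at 2 h and 90.7 at 6 h, are those of the 5 libraries that stand apart. The log2 change in dKO cells over 27 libraries was 2.31 ± 0.08 at 1 h, 1.52 ± 0.09 at 2 h and 0.59 ± 0.08 at 6 h (SE, limma adjusted p = 2.77e-18, 5.85e-14 and 1.57e-07). With all 32 libraries it was 1.56, 0.44 and 0.23, and only the first was called. In WT cells it was 2.23 ± 0.34 at 1 h, 1.51 ± 0.34 at 2 h and 0.01 ± 0.34 at 6 h (SE, limma over 32 libraries, adjusted p = 6.25e-05, 0.000279 and 0.974). With median-of-ratios scaling the values were 2.83, 2.36 and 1.33 in dKO cells over 27 libraries and 2.70, 2.29 and 0.69 in WT cells.

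The other sensors each had a course of their own. Aim2 averaged 17.1, 28.4, 56.9 and 48.7 RPKM at 0, 1, 2 and 6 h in the dKO libraries that do not stand apart, and 18.4, 26.2, 48.4 and 36.1 RPKM in WT libraries. The log2 change of Aim2 in dKO cells was 0.75, 1.04 and 1.35 at 1, 2 and 6 h with all 32 libraries (limma adjusted p = 0.0153, 0.00353 and 2.49e-05) and 0.72, 1.71 and 1.49 with 27. In WT cells it was 0.50 at 1 h, which did not pass with all 32 libraries (adjusted p = 0.0786). With 27 libraries this 1 h change was 0.50 ± 0.06 and was called (SE, limma adjusted p = 1.08e-07). The WT change was 1.37 ± 0.24 at 2 h and 0.95 ± 0.24 at 6 h with all 32 libraries (SE, limma adjusted p = 1.99e-05 and 0.000894). With median-of-ratios scaling Aim2 read 1.23, 2.53 and 2.22 in dKO cells over 27 libraries and 0.96, 2.14 and 1.62 in WT cells. The call in dKO cells at 1 h was lost without dKO 0 h replicate 1 or 4 or dKO 1 h replicate 2.

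Nlrc4 averaged 5.48, 9.59, 7.8 and 3.74 RPKM at 0, 1, 2 and 6 h in the dKO libraries that do not stand apart and 5.37, 10.4, 9.7 and 3.72 RPKM in WT libraries. In dKO cells its log2 change was 0.50, -0.06 and -0.56 at 1, 2 and 6 h with all 32 libraries, the 1 h and 6 h values called (limma adjusted p = 0.0295 and 0.00853), and 0.75, 0.47 and -0.50 with 27, all called. The 1 h call with all 32 libraries was lost without any of 5 dKO libraries, and the 6 h call without dKO 0 h replicate 2. In WT cells Nlrc4 rose by 0.90 at 1 h and 0.79 at 2 h (log2; limma adjusted p = 0.000663 and 0.000403). With median-of-ratios scaling the 1 h and 2 h values were 1.23 and 1.25 in dKO cells over 27 libraries and 1.32 and 1.52 in WT cells. At 6 h the WT change was -0.48 ± 0.18 on the log2 scale (limma adjusted p = 0.0211, and 0.061 without WT 6 h replicate 4), which is less than the fall of the median gene and turns to 0.14 with median-of-ratios scaling and 0.33 with quantile normalization.

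The RPKM of both NAIP sensors dipped in WT cells, and in dKO cells that of Naip5 alone dipped at 2 h. Naip5 averaged 12.5, 10.7, 6.79 and 12.9 RPKM at 0, 1, 2 and 6 h in the dKO libraries that do not stand apart and 12, 9, 6.27 and 12.6 RPKM in WT libraries. Its log2 change at 2 h was -0.83 ± 0.08 in dKO cells over 27 libraries (SE, limma adjusted p = 6.61e-10), where all 32 gave -0.33 and no call, and -0.89 ± 0.20 in WT cells (adjusted p = 0.000317). With median-of-ratios scaling these were -0.03 and -0.14, so the dip was close to that of the median gene. Naip2 averaged 26.9, 24.9, 29.7 and 30.1 RPKM at 0, 1, 2 and 6 h in all dKO libraries and 27.6, 19.4, 17.8 and 23.9 RPKM in WT libraries. In dKO cells its log2 changes of -0.12, 0.14 and 0.15 were not called with all 32 libraries. With 27 libraries they were -0.19, 0.07 and 0.19, of which the 1 h and 6 h changes were called (limma adjusted p = 0.0143 for both). In WT cells they were -0.50, -0.62 and -0.21, each called by limma (adjusted p = 0.000124, 3.44e-06 and 0.0261, the last lost without any of 4 WT libraries). With median-of-ratios scaling Naip2 read 0.32, 0.90 and 0.93 in dKO cells over 27 libraries and -0.03, 0.15 and 0.47 in WT cells, so relative to the median gene its direction in WT cells turned at 2 and 6 h.

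The adaptor gene Pycard was the one member called lower at every time in both genotypes with all 32 libraries. It averaged 61.4 ± 11.6, 41.9 ± 7.13, 38 ± 18.5 and 28.2 ± 1.68 RPKM at 0, 1, 2 and 6 h in dKO libraries and 65.2 ± 4.98, 39.8 ± 3.24, 31.4 ± 3.48 and 28.3 ± 1.4 RPKM in WT libraries (SD, n = 4 each). The log2 change at 1, 2 and 6 h was -0.54, -0.77 and -1.09 in dKO cells and -0.71, -1.05 and -1.19 in WT cells, all called by limma (adjusted p = 0.0203, 0.00366 and 1.57e-05 in dKO, 0.00383, 2.26e-05 and 3.33e-06 in WT). With 27 libraries the dKO changes were -0.54, -1.17 and -1.26, all called. The median gene fell too, and with median-of-ratios scaling the Pycard changes were -0.02, -0.33 and -0.52 in dKO cells over 27 libraries and -0.23, -0.26 and -0.50 in WT cells, where with all 32 libraries the calls at 1 h were lost in both genotypes and those at 2 and 6 h held. As deposited, the call in dKO cells at 1 h was lost when dKO 0 h replicate 1, 3 or 4 or dKO 1 h replicate 2 was left out.

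Casp4 had the largest LPS response of the 9 genes, and it was still climbing at the last time point. In dKO cells it measured 11.1, 23.8, 12.2 and 11.5 RPKM at 0 h, 22, 53.6, 23.7 and 24 RPKM at 1 h, 53.6, 12.5, 62.3 and 138 RPKM at 2 h, and 137, 134, 147 and 59 RPKM at 6 h. In WT cells it measured 14.2, 13.6, 15.3 and 16.9 RPKM at 0 h, 31.7, 31.4, 33.8 and 37.3 RPKM at 1 h, 71.7, 68.8, 70.9 and 71.3 RPKM at 2 h, and 119, 134, 127 and 123 RPKM at 6 h. The groups of WT libraries did not overlap between any 2 times, and in dKO cells the 5 libraries that stand apart hold all values outside such an order. The log2 change in dKO cells over 27 libraries was 0.97, 2.27 and 3.53 at 1, 2 and 6 h, with an SE of 0.07 to 0.08, and 1.02, 1.79 and 2.97 with all 32. In WT cells it was 1.14 ± 0.41 at 1 h, 2.21 ± 0.41 at 2 h and 3.03 ± 0.41 at 6 h (SE; limma adjusted p = 0.024, 3.94e-05 and 5.82e-07), and the 1 h call was lost without WT 0 h replicate 2 or WT 1 h replicate 4. The SE is estimated from all 8 groups together, and over 27 libraries that of the WT changes was 0.06. With median-of-ratios scaling Casp4 read 1.47, 3.09 and 4.26 in dKO cells over 27 libraries and 1.60, 2.97 and 3.70 in WT cells.

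Casp1 and Gsdmd had their lowest RPKM at 1 or 2 h and their highest at 6 h. Casp1 averaged 24.5, 17.9, 27 and 61.5 RPKM at 0, 1, 2 and 6 h in the dKO libraries that do not stand apart, and 29.3, 20.5, 33.1 and 56.8 RPKM in WT libraries. The Casp1 rise at 6 h was called with all 32 libraries, at 1.15 ± 0.24 in dKO cells and 0.94 ± 0.24 in WT cells (log2, SE; limma adjusted p = 0.000137 and 0.000984). With 27 libraries it was 1.31 in dKO cells, and with median-of-ratios scaling 2.05 in dKO cells over 27 libraries and 1.62 in WT cells. Its 1 h value in WT cells, -0.50, was called with 27 libraries (adjusted p = 3.58e-06) but is -0.03 with median-of-ratios scaling. Gsdmd averaged 56.7, 39.8, 38.5 and 77.2 RPKM in the dKO libraries that do not stand apart and 66.4, 50.5, 53.9 and 94.1 RPKM in WT libraries. Its change at 6 h was 0.44 in dKO cells over 27 libraries (log2; limma adjusted p = 3.19e-06), against 0.32 and no call with all 32, and 0.50 ± 0.19 in WT cells (adjusted p = 0.0185). With median-of-ratios scaling that change was 1.19 in dKO cells over 27 libraries and 1.18 in WT cells. For Gsdmd the lower RPKM at 1 and 2 h in WT cells, -0.39 and -0.30, was not called with all 32 libraries. With 27 libraries both changes were called lower (limma adjusted p = 3.58e-06 and 6.71e-05). They read 0.08 and 0.48 with median-of-ratios scaling.

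**Figure D2:**
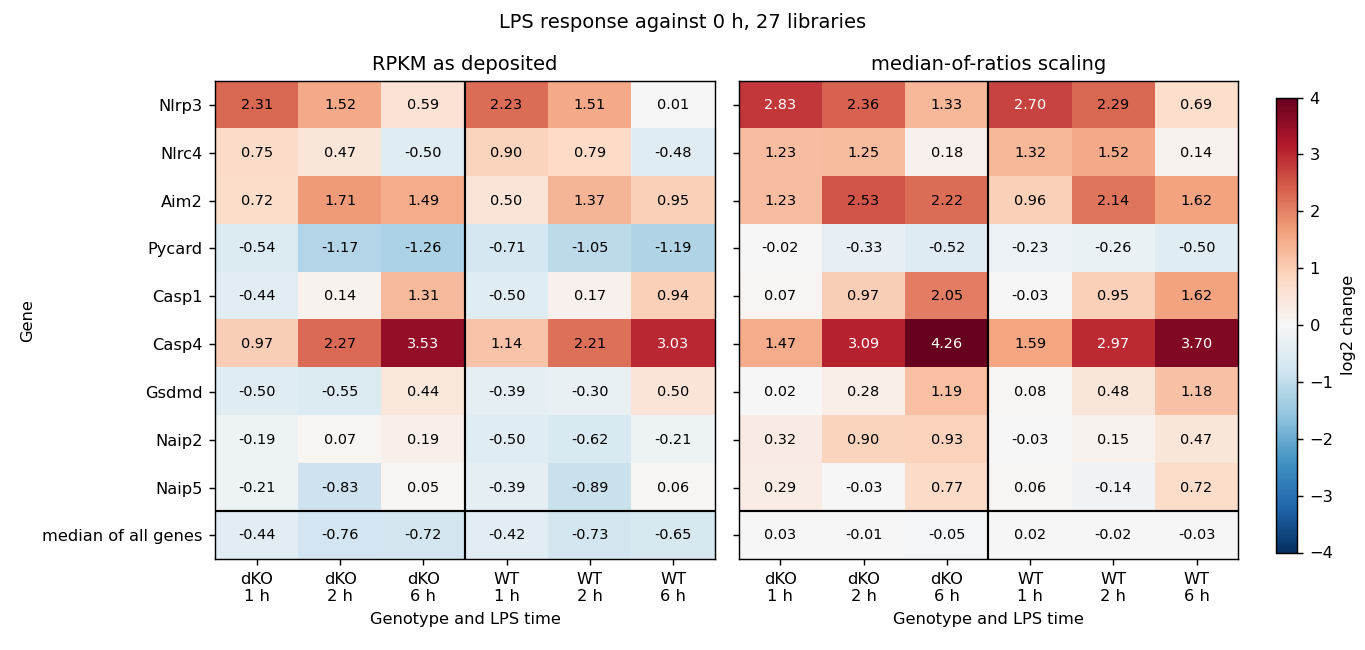
Log2 change after 1, 2 and 6 h of LPS against 0 h in dKO and WT cells (columns) for the 9 genes and for the median of all genes tested (rows), over 27 libraries, with RPKM as deposited (left) and with median-of-ratios scaling (right). Casp4 reaches 3.53 in dKO and 3.03 in WT at 6 h as deposited. The sign is negative on the left and positive on the right for Nlrc4 at 6 h, Gsdmd at 1 and 2 h and Naip5 at 1 h in both genotypes, for Casp1 and Naip2 at 1 h in dKO, and for Naip2 at 2 and 6 h in WT.

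The genotype comparison asks whether cells without LMP7 and MECL1 express these genes at another level at each time. Naip2 was the one gene of the 9 that was higher in dKO cells at 1, 2 and 6 h with all 32 libraries, and it did not differ detectably at 0 h. Nlrc4 was called lower at 2 h, and no other member passed at any time. In counts, 0, 1, 1 and 1 of the 9 genes were higher in dKO cells at 0, 1, 2 and 6 h, where 0.932%, 1.84%, 5.15% and 4.55% of all genes tested were, and 0, 0, 1 and 0 were lower, where 5.91%, 9.02%, 7.24% and 10.2% of all genes were. With 27 libraries 0, 2, 2 and 3 were higher (6.75%, 9.8%, 9.29% and 13.9% of all genes) and 3, 2, 4 and 1 lower (19.4%, 29.4%, 23.8% and 33%). Median-of-ratios scaling of the 27 libraries turned that split to 0, 4, 3 and 6 higher and 1, 2, 1 and 0 lower. The median difference of the 9 with all 32 libraries was -0.04, -0.07, -0.10 and -0.00 (log2), against -0.19, -0.18, 0.09 and -0.15 for all genes. With 27 libraries it was -0.11, -0.05, -0.11 and 0.11, against -0.06, -0.11, -0.09 and -0.12. Of the 2 h calls with all 32 libraries, Nlrc4 was lost with median-of-ratios scaling and Naip5 was called higher in its place (0.49).

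Naip2 measured 27.6, 25.9, 26.1 and 28.2 RPKM in dKO cells at 0 h, against 26.2, 27.9, 26.8 and 29.6 RPKM in WT cells. At 1 h it measured 23.1, 27.9, 24.2 and 24.2 RPKM in dKO cells, against 18.5, 20.1, 18.8 and 20.1 RPKM in WT cells. At 2 h the values were 31.2, 30.2, 26.4 and 30.9 RPKM in dKO cells and 16.2, 19.6, 17.7 and 17.7 RPKM in WT cells. At 6 h they were 32.5, 31.1, 29.8 and 26.9 RPKM in dKO cells and 23.5, 25.2, 24.2 and 22.5 RPKM in WT cells. The groups overlapped at 0 h and did not overlap at the 3 LPS times, where 32.1%, 13.4% and 31.1% of all genes had groups that did not overlap. Relative to their own 0 h means of RPKM, the dKO means at 2 and 6 h were above and the WT means at all 3 LPS times were below.

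The log2 difference of Naip2, dKO minus WT, was -0.04 ± 0.08 at 0 h (adjusted p = 0.822), 0.35 ± 0.08 at 1 h (adjusted p = 0.00515), 0.72 ± 0.08 at 2 h (adjusted p = 4.44e-07) and 0.33 ± 0.08 at 6 h (adjusted p = 0.00728; limma, SE). All 3 calls held when any 1 of the 32 libraries was left out, with adjusted p up to 0.0326, 6.53e-06 and 0.0336, and with 27 libraries the differences were 0.29, 0.68 and 0.38. With median-of-ratios scaling of all 32 libraries the differences at 1, 2 and 6 h were 0.55, 0.64 and 0.49.

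The rest of the NAIP cluster was read beside it. Naip1, with 0.259 to 1.66 RPKM in group means of dKO libraries that do not stand apart and 0.0684 to 0.529 RPKM in WT, was called higher in dKO cells at 1 h (0.87 ± 0.23, limma adjusted p = 0.0116). With 27 libraries Naip1 was called at all 4 times (0.48, 1.07, 0.53 and 0.41). Naip6 was higher in dKO cells at 2 h, by 0.63 ± 0.17 (adjusted p = 0.014) with all 32 libraries and 0.35 with 27. Naip7 was not called with all 32 libraries at any time, and with 27 it was called higher in dKO cells at 0 h (0.52, adjusted p = 0.0485). Naip5, the neighbour of Naip2, had 6.85, 14.6, 6.74 and 12.1 RPKM in dKO cells at 2 h, against 5.82, 6.98, 6.36 and 5.9 RPKM in WT cells, and the dKO values of 14.6 and 12.1 belong to libraries that stand apart. Its 2 h difference was 0.57 with all 32 libraries (limma adjusted p = 0.0612, and 0.0145 at the lowest when 1 of 4 dKO libraries was left out) and 0.11 with 27, and with 27 libraries it was called at 1 h (0.23, adjusted p = 0.00705).

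**Figure D3:**
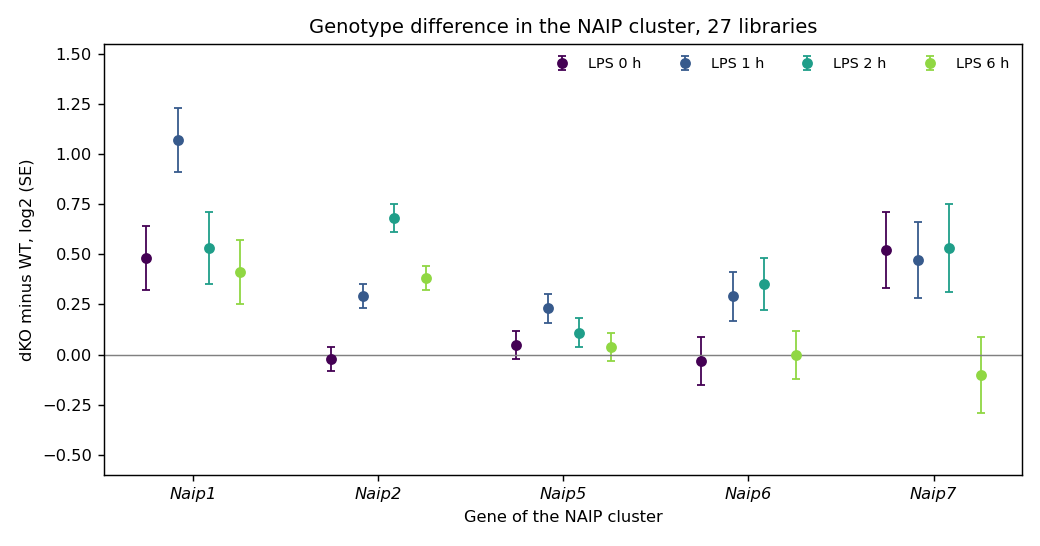
Log2 difference dKO minus WT (vertical axis, with SE) of the 5 NAIP genes at 0, 1, 2 and 6 h of LPS (colours), over 27 libraries. Naip2 lies at -0.02 at 0 h and at 0.29, 0.68 and 0.38 at 1, 2 and 6 h, while Naip5 lies between 0.04 and 0.23.

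Gsdmd was lower in dKO cells at each time once the libraries that stand apart were left out. It measured 54.2, 40.8, 59.8 and 56.1 RPKM in dKO cells at 0 h, against 64.9, 68.3, 66.5 and 65.9 RPKM in WT cells. At 1 h it measured 38.2, 33.4, 41.5 and 39.8 RPKM in dKO cells, against 51.5, 47.4, 50.1 and 53 RPKM in WT cells. The 2 h values were 36.3, 54.2, 40.6 and 79.5 RPKM in dKO cells and 50.6, 48.3, 56.5 and 60.2 RPKM in WT cells. The groups did not overlap at 0 or 1 h, and at 2 h only dKO replicates 2 and 4, both libraries that stand apart, reached into or past the WT range. At 6 h Gsdmd measured 76.3, 76, 79.2 and 39.7 RPKM in dKO cells, against 96.8, 84.9, 94.5 and 100 RPKM in WT cells, again without overlap (26.5% of all genes had groups without overlap at 0 h). With 27 libraries the log2 differences were -0.23, -0.34, -0.48 and -0.28 at 0, 1, 2 and 6 h (limma adjusted p = 0.0126, 0.000264, 2.95e-05 and 0.0013). Of all genes tested 8.51% were called lower at all 4 times in that fit. With all 32 libraries the differences were -0.34, -0.40, -0.10 and -0.52 and none was called, with the lowest adjusted p, 0.0604, at 6 h, which reached a call without dKO 0 h replicate 2, dKO 2 h replicate 1, 2 or 4 or dKO 6 h replicate 3. With 27 libraries and median-of-ratios scaling the values were -0.15, -0.21, -0.34 and -0.14, and the calls at 0 and 6 h were lost.

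With 27 libraries Casp4 was lower in dKO cells at 0, 1 and 2 h and Casp1 at 0 and 2 h, and neither was at 6 h. Casp4 at 0 h was below the WT range in the 3 dKO libraries that do not stand apart (11.1, 12.2 and 11.5 RPKM, against 13.6 to 16.9 RPKM in WT). At 1 h those 3 libraries had 22, 23.7 and 24 RPKM, against 31.4 to 37.3 RPKM in WT, and at 2 h the 2 such libraries had 53.6 and 62.3 RPKM, against 68.8 to 71.7 RPKM in WT. With 27 libraries the Casp4 differences were -0.35, -0.52, -0.29 and 0.14 (log2; limma adjusted p = 0.000455, 2.37e-06, 0.00682 and 0.0952). With all 32 libraries they were -0.10, -0.22, -0.52 and -0.16, none called. Median-of-ratios scaling of the 27 libraries gave -0.27, -0.39, -0.15 and 0.29, where the 2 h call was lost and the 6 h difference was called higher. Casp1, its neighbour, was -0.26 at 0 h and -0.29 at 2 h with 27 libraries (limma adjusted p = 0.0279 and 0.0216), both lost with median-of-ratios scaling and neither called with all 32 libraries.

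Nlrp3 and Aim2 were higher in dKO cells at 6 h with 27 libraries. Nlrp3 at 6 h measured 54.4, 54.4, 50.4 and 90.7 RPKM in dKO cells, against 36.5, 41.4, 40 and 37.2 RPKM in WT cells, and Aim2 measured 50.6, 48.6, 46.8 and 56.2 RPKM in dKO cells, against 35.4, 39.1, 38.2 and 31.6 RPKM in WT cells. For both genes every dKO library was above every WT library, as for 31.1% of all genes at 6 h in either direction. With 27 libraries the differences were 0.45 ± 0.07 for Nlrp3 and 0.43 ± 0.07 for Aim2 (log2, SE; limma adjusted p = 2.33e-05 and 1.25e-05), and 0.59 and 0.57 with median-of-ratios scaling. With all 32 libraries they were 0.64 ± 0.34 and 0.48 ± 0.24 and were not called (limma adjusted p = 0.229 and 0.192). The call was reached for Nlrp3 by leaving out dKO 0 h replicate 2 alone (adjusted p = 0.0449) and for Aim2 by leaving out dKO 2 h replicate 2 alone (adjusted p = 0.0301).

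Nlrc4 at 2 h had 8.59, 5.64, 7.01 and 4.24 RPKM in dKO cells, against 10.1, 10.8, 9.4 and 8.47 RPKM in WT cells. The difference was -0.61 ± 0.18 (limma adjusted p = 0.0286), and -0.30 with 27 libraries (adjusted p = 0.0275). The call was lost with median-of-ratios scaling, with quantile normalization or when WT 2 h replicate 1, 2 or 3 or dKO 2 h replicate 2 or 4 was left out. Pycard was not called between the genotypes at any time with all 32 libraries or with 27, although its 1 h difference over 27 libraries, 0.19, became 0.32 and a call with median-of-ratios scaling.

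**Figure D4:**
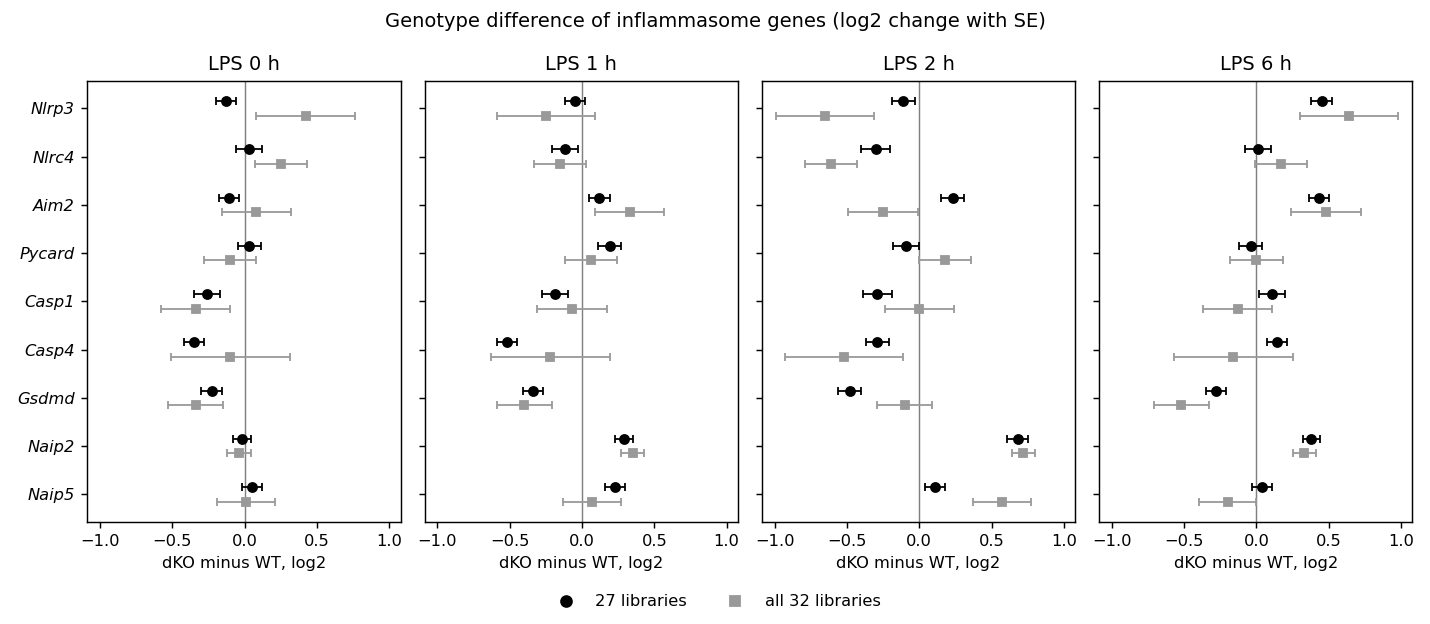
Log2 difference dKO minus WT (horizontal axis, with SE) of the 9 genes at 0, 1, 2 and 6 h of LPS, with 27 libraries (black circles) and with all 32 (grey squares). Naip2 is above 0 at 1, 2 and 6 h in both, and Gsdmd is below 0 at each time, while Nlrp3 at 0 h changes from 0.42 with all 32 libraries to -0.13 with 27.

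Whether LPS moved a gene differently in the 2 genotypes was tested as the difference of the responses. With all 32 libraries Naip2 at 2 h was the single member called, at 0.76 ± 0.12 (log2, SE; limma adjusted p = 0.000777), where 0.305% of all genes were called. At 1 and 6 h none of the 9 was called by limma, where 0.0359% and 0.923% of all genes were. With median-of-ratios scaling the Naip2 difference was 0.47 and was not called, and with 27 libraries it was 0.69 (adjusted p = 5.57e-05) and 0.75 with that scaling, called in both. At 6 h 5 members were called with 27 libraries, all higher, as were 9.8% of all genes: Nlrp3 0.58, Aim2 0.54, Casp4 0.49, Naip2 0.39 and Casp1 0.37. Each of the 5 was also called over 27 libraries with median-of-ratios scaling and with quantile normalization. Gsdmd, at -0.05, was not among them.

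Cell type markers moved with genotype and stand beside each of these differences. Of 11 dendritic cell markers 0 were called higher and 4, 5, 4 and 5 lower in dKO cells at 0, 1, 2 and 6 h with all 32 libraries. With 27 libraries 0 were higher and 7, 7, 5 and 9 lower. Of all genes tested 0.932%, 1.84%, 5.15% and 4.55% were higher and 5.91%, 9.02%, 7.24% and 10.2% lower with all 32 libraries. With 27 libraries these shares were 6.75%, 9.8%, 9.29% and 13.9% higher and 19.4%, 29.4%, 23.8% and 33% lower. The 13 macrophage and monocyte markers in the tables summed to 16417 to 25135 RPKM in dKO libraries at 0 h, against 13268 to 16943 RPKM in WT libraries. At 6 h they summed to 5311 to 15140 RPKM in dKO libraries (median 6994), against 3113 to 3830 RPKM in WT libraries (median 3664). Of these markers Lyz2 had the highest median over the 32 libraries, 8760 RPKM. Of the 12 tested, 0, 3, 2 and 4 were called higher and 0 lower in dKO with all 32 libraries, and 6, 7, 5 and 10 higher and 2, 1, 2 and 1 lower with 27. The 10 neutrophil and granulocyte markers summed to 207 to 451 RPKM in dKO libraries and 425 to 1273 RPKM in WT libraries, with 5, 5, 7 and 4 of the 9 tested called lower in dKO with all 32 libraries and 7, 9, 7 and 5 with 27. The 9 eosinophil, mast cell and basophil markers summed to 202 to 547 RPKM in dKO libraries and 452 to 1404 RPKM in WT libraries. Of the 6 tested, 5, 6, 6 and 3 were called lower in dKO with all 32 libraries and 6, 6, 6 and 4 with 27, and 0 higher. The part of these in the differences of the 9 genes was not tested.

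Genes around the inflammasome were taken from lists of pathway members. Their counts stand beside the shares of all genes called in dKO cells at 0, 1, 2 and 6 h. These were 0.932%, 1.84%, 5.15% and 4.55% higher and 5.91%, 9.02%, 7.24% and 10.2% lower with all 32 libraries. With 27 libraries they were 6.75%, 9.8%, 9.29% and 13.9% higher and 19.4%, 29.4%, 23.8% and 33% lower. Of 20 other sensor genes tested, 0, 1, 1 and 1 were higher and 1, 1, 0 and 1 lower in dKO cells at 0, 1, 2 and 6 h with all 32 libraries, with a median difference of -0.31, -0.26, -0.12 and 0.01. With 27 libraries 2, 1, 4 and 7 were higher and 9, 6, 6 and 4 lower. Ciita, the MHC class II transactivator and an NLR protein, was -0.95 at 0 h (limma adjusted p = 0.0063), -0.85 at 1 h and -0.85 at 6 h, and -0.70, -0.92 and -0.60 with 27 libraries. Nod2, a sensor of bacterial muramyl dipeptide, was 0.73 at 6 h (limma adjusted p = 0.015) and 0.65 with 27. Among 28 regulators and pyroptosis genes 0, 0, 3 and 3 were higher and 2, 3, 1 and 2 lower with all 32 libraries. With 27 libraries 4, 7, 7 and 11 of them were higher and 10, 9, 5 and 7 lower. Serpinb1a, an inhibitor of neutrophil serine proteases, was lower by a log2 difference of -1.37 at 0 h and -1.77 at 1 h (adjusted p = 0.00185 and 6.44e-05; -1.47 and -1.94 with 27 libraries), with 2.06 ± 0.627 RPKM in dKO cells and 6.01 ± 1.05 RPKM in WT cells at 0 h (SD, n = 4 each). Sugt1, a co-chaperone of NLR proteins, was lower at all 4 times (-0.33, -0.38, -0.31 and -0.48, and -0.31, -0.38, -0.33 and -0.37 with 27 libraries). Ninj1, which ruptures the plasma membrane after gasdermin pores have formed, was higher at 2 and 6 h (0.59 and 0.70 with all 32 libraries, 0.31 and 0.88 with 27). Its mean was also higher earlier, at 86.8 RPKM at 0 h and 73.2 RPKM at 1 h in dKO libraries that do not stand apart, against 62.6 and 58 RPKM in WT. P2rx7, the ATP-gated channel upstream of NLRP3, was higher at 2 h, by 1.31 with all 32 libraries and 0.58 with 27, and at 6 h, by 1.05. The 2 h value with all 32 includes dKO replicate 2, which stands apart, at 11.9 RPKM. P2rx7 was not higher only after LPS: dKO libraries that do not stand apart averaged 11.3 RPKM at 0 h and 4.57 RPKM at 1 h. The WT means were 6.77 and 2.72 RPKM. None of 12 other caspases and their partners was called by limma at any time with all 32 libraries, and with 27 libraries 0, 0, 0 and 5 were higher and 4, 4, 5 and 5 lower.

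Of 24 genes for LPS receptors, adaptors and downstream factors, 0, 0, 3 and 4 were higher and 0, 0, 1 and 0 lower in dKO cells with all 32 libraries. With 27 libraries 4, 4, 4 and 10 were higher and 9, 9, 6 and 4 lower. Tlr4, the LPS receptor, was higher by a log2 difference of 1.18 ± 0.26 at 2 h and 1.41 ± 0.26 at 6 h (limma adjusted p = 0.00263 and 0.000344; 1.33 and 1.18 with 27 libraries). It averaged 15.3 ± 5.94 RPKM in dKO cells at 6 h, against 5.17 ± 0.327 RPKM in WT cells (SD, n = 4 each). After 6 h of LPS the log2 change of Tlr4 was -1.58 in dKO cells and -2.49 in WT cells (limma adjusted p = 1.29e-05 in dKO, 3.31e-08 in WT), and -1.67 in dKO cells with 27 libraries. In WT cells 8, 13 and 15 of these 24 genes were called higher at 1, 2 and 6 h, where 6.84%, 11.2% and 14.9% of all genes were. Called lower were 4, 7 and 5, where 45.5%, 68.5% and 60.9% of all genes were.

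The cytokines that caspase-1 matures were also read, as the output of the system at the level of RNA. Il1b, the IL-1β precursor, averaged 45 ± 16.1 RPKM at 0 h in the 3 dKO libraries that do not stand apart (SD), against 76 ± 22.1 RPKM in WT cells (SD, n = 4), and dKO replicate 2 had 4987 RPKM. After 1 h it averaged 4906 ± 604 RPKM in the 3 such dKO libraries (SD) and 4702 ± 190 RPKM in WT cells (SD, n = 4). The WT rise of Il1b at 1 h was 5.99 and that of Il1a 7.40 on the log2 scale (limma adjusted p = 0.000227 and 8.66e-05). Neither Il1a nor Il1b was called between the genotypes at any time with all 32 libraries. With 27 libraries Il1b was called lower in dKO cells at 0 h (-0.77, adjusted p = 0.00464) and Il1a higher at 1 h (0.42, adjusted p = 0.0352). Il18, whose product caspase-1 also matures, had 5.01, 5.2, 4.41 and 5.49 RPKM at 0 h in dKO cells, against 9.88, 12, 13.6 and 13.9 RPKM in WT cells. Its difference at 0 h was -1.21 ± 0.32 (limma adjusted p = 0.0183) and -1.22 with 27 libraries, and the groups did not overlap. At 1, 2 and 6 h the Il18 difference was -0.95, -0.65 and -0.89 with all 32 libraries (adjusted p = 0.055, 0.189 and 0.0633) and -1.01, -0.98 and -0.40 with 27, where all 3 were called. Il1r2, the decoy receptor for IL-1, was lower in dKO cells at 1 and 2 h, by a log2 difference of -1.28 and -2.08 (limma adjusted p = 0.00876 and 4.8e-05), and -1.32 and -1.33 with 27 libraries.

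Over the 32 libraries, which share the LPS times, the 9 genes fell into a few courses, described here by Pearson correlations of log2 values with no test. Nlrp3 and Nlrc4 correlated at 0.86, Aim2 and Casp4 at 0.84, Casp1 and Gsdmd at 0.79, Casp1 and Casp4 at 0.78, and Pycard and Casp4 at -0.95. Naip2 and Naip5 correlated at 0.56. Among all genes tested the closest in course to Nlrp3 were Zc3h12c (0.99), Tlr2 (0.98) and Ddx5 (0.97), and to Nlrc4 Gp49a, Med21 and Maff (0.95 each). For Aim2 they were Armcx6, Nampt and Mafk (0.98, 0.98 and 0.97), and for Pycard Tmem154, Sidt2 and Adipor2 (0.98 each). Casp1 was closest to Gbp4, Parp10 and Nod1 (0.98 each), Casp4 to Cd200, Slamf7 and Car13 (0.99 each), and Gsdmd to Dbnl, Mon1b and Mrpl13 (0.97 each). Naip5 was closest to Phf21a, Arhgap12 and Inppl1 (0.96 each). Naip2 had the weakest nearest neighbours of the 9, Laptm4a at 0.88, C1ra at 0.86 and Plod3 at 0.84.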

How the data were processed

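Transcripts were sequenced in 32 libraries, 4 in each of 8 groups of genotype and LPS time. TruSeq RNA kits were used on Trizol extracts (4 µg of total RNA a library), per the labels, and the submitters' processing notes name CASAVA 1.8.2 and mm9; the aligner, annotation and counting rule are not given in the sources used here. The deposited values are RPKM, a measure scaled by definition to gene length and library total, and that scaling itself was not checked. Beside RPKM the authors deposited a whole-number signal. Its ratio to RPKM was fixed up to a constant per gene and a constant per library, and the signal served for depth only. Read counts and counting intervals were not computed, so precision rests on the spread between libraries.

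Genes with RPKM of at least 1 in at least 4 libraries were tested (11154 of 22216; the 92 spike-ins were left out). Log2(RPKM + 0.5) was fitted with limma 3.58.1 in R 4.3.3, with 8 group means and an intensity trend, and 13 contrasts were taken; fold changes on this scale understate those of low genes. P-values are two-sided, adjusted by Benjamini-Hochberg over the genes of a contrast and called below 0.05. The code was tested on simulated data. Whether equal replicate numbers pair libraries was checked from correlations of deviations around group means: 1 of 16 dKO and WT pairs of the same number and time was above 0.1, as were 5 of 24 pairs across times within dKO and 16 of 24 within WT (median 0.14, lowest 0.02). Pairs needed every correlation above 0.1, a bar not met here. Each library was correlated with the WT group means; 5 dKO libraries lay nearest to another time, and leaving them out was chosen after seeing the data.

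The 9 genes and all lists were chosen with earlier results of these data known. Text names the 9 genes, up to 4 genes per list and comparison, by adjusted p, Il1a, Il1b and Il18, the 3 most correlated genes of each member, Psmb8, Psmb10 and Il6; the NAIP cluster genes outside this rule were added after their values were seen. Alternatives were other pseudocounts, filters, scalings, fits per contrast, no trend, a block on replicate number and leaving out each library.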

Additional observations from a re-analysis of the deposited data

Results flagged for a closer look

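Of 72 groups of 4 libraries (9 genes in 8 groups), 14 held a library whose gap to the nearest other, over the range of the group, was above Dixon's critical value for 4 samples, which chance gives in about 1 group in 20. Of these, 13 fell in dKO libraries nearest to another LPS time than their label. In the library labelled dKO 0 h replicate 2 these were Nlrp3 (165 RPKM, against 33.8 to 36.4 in the other 3), Nlrc4 (10.4 RPKM, against 5.32 to 5.76), Aim2 (29.2 RPKM, against 16.7 to 17.4) and Casp4 (23.8 RPKM, against 11.1 to 12.2). In dKO 1 h replicate 2 they were Aim2 (52.6 RPKM), Pycard (31.3 RPKM), Casp4 (53.6 RPKM) and Naip5 (6.67 RPKM). Pycard had 65.6 RPKM in dKO 2 h replicate 2, and Casp1 had 73.6 RPKM in dKO 2 h replicate 4. In dKO 6 h replicate 4 Nlrp3 had 90.7 RPKM, Casp4 59 RPKM and Gsdmd 39.7 RPKM. The remaining 1 was Pycard in WT 6 h replicate 4, at 26.2 RPKM against 28.7 to 29.2 RPKM in the other 3.

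The response of Naip2 to 2 h of LPS differed between the genotypes, by 0.76 on the log2 scale (dKO minus WT), as tested by the difference of the responses.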

How the results depend on the processing

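The counts of members called were 4 between the genotypes at 4 times, 14 and 19 for LPS in dKO and in WT cells, and 1 for the difference of the responses. Leaving out each library in turn gave 3 to 7, 9 to 17, 17 to 22 and 1 to 1; the lowest genotype count came without WT 2 h replicate 1, 2 or 3 and the highest without dKO 0 h replicate 2, and the lowest count for LPS in dKO cells without dKO 0 h replicate 1 or 4 or dKO 1 h replicate 2. A replicate block gave 4, 11, 18 and 1. Fits of only the groups of a contrast gave 6 for LPS in dKO cells and 0 for the difference, which was also 0 with median-of-ratios scaling. Without the 5 libraries that stand apart the counts were 17 (7 higher, 10 lower) between the genotypes and 6 for the difference. For LPS they were 24 in dKO cells and 25 in WT cells. The WT count held 13 higher and 12 lower, with no WT library left out. Median-of-ratios scaling turned the split for LPS from 9 higher and 5 lower to 14 and 2 in dKO cells, and from 11 and 8 to 16 and 2 in WT cells.

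Among changes called with or without the alternative, directions turned with median-of-ratios scaling, which recentres all genes: in dKO cells Gsdmd at 1 h (0.02), Naip5 at 6 h (0.47) and Nlrc4 at 6 h (0.03), and in WT cells Naip2 at 2 h (0.15), Gsdmd at 2 h (0.48), Naip2 at 6 h (0.47) and Nlrc4 at 6 h (0.14). Quantile normalization turned, at 6 h, Naip5 (0.35) and Nlrc4 (0.15) in dKO cells and Naip2 (0.12) and Nlrc4 (0.33) in WT cells. Without the 5 libraries Aim2 at 2 h (0.23, dKO minus WT), Casp1 at 2 h (-0.29), Nlrc4 after 2 h in dKO cells (0.47) and the Casp4 difference of response at 6 h (0.49) turned; the cause was not tested. Of 117 single results, all 117 kept direction and call with either pseudocount and the stricter filter, 115 with no filter, 116 with no trend, 113 with the replicate block and 67 without the 5 libraries. Fewer did so with fits of only the groups of a contrast (98), quantile normalization (93) and median-of-ratios scaling (77). Depth limits Naip1, under 2 RPKM in nearly every library.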
